A study of Sus scrofa with 2 samples.

Results

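SOX proteins are transcription factors that bind DNA through a high-mobility-group (HMG) box, and the genes that encode 10 of them (SOX2, SOX3, SOX4, SOX5, SOX6, SOX8, SOX9, SOX11, SOX17 and SOX18) were examined in the cochlear stria vascularis (SV) of pigs. Genes were chosen by name, not by their values. Of the 27622 features measured, 8 were matched to these genes, 6 by their deposited symbol and 2 (SOX5 and SOX6) by the study's own list of SOX features or the Ensembl pig name. No feature was matched to SOX8 or SOX18, which were not analysed here. SOX10, which belongs with SOX8 and SOX9 to subgroup E, and 8 further family genes served only for comparison.

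The study traced deafness and white coat in Rongchang pigs to a recessive allele, r, of the gene for microphthalmia-associated transcription factor (MITF), in which short insertions lie in the distal part of the promoter of the melanocyte isoform (the M-promoter). RNA was taken from the lateral walls of the cochlea that carry the SV, in 1 pig library of genotype MITF R/r and 1 pig library of genotype MITF r/r. Both libraries carry at least 1 r allele, so no R/R library entered the comparison. The age is given as P1 in the labels and as embryonic day 85 in the study's text, and the discrepancy could not be settled. With 1 library for each genotype there was no replicate check and no test, so every difference given here compares these libraries and not the genotypes.

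SOX factors fall into subgroups by the sequence of the HMG box, and members of a subgroup often share target sites and partners. Subgroup B1 (SOX2, SOX3) maintains progenitor and sensory states, subgroup C (SOX4, SOX11) acts in differentiating and mesenchymal cells, and subgroup D (SOX5, SOX6) and subgroup E (SOX8, SOX9) drive cartilage and otic capsule formation together. Subgroup F (SOX17, SOX18) acts in endoderm and in the vessels, and the SV is a vascular epithelium. In the inner ear SOX9 is needed from the otic placode onward, and SOX2 is needed for the sensory patches and the supporting cells.

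The SOX family enters the study because a search of the distal M-promoter for binding sites of any transcription factor returned putative SOX sites at the insertions of the r allele, and 4 probes were designed there for electrophoretic mobility shift assays. They are printed because they cover the places of the predicted sites, which the insertions in r1 and r2 were predicted to create. The study incubated them with nuclear extract of mouse B16 melanoma cells, not of the SV. It reported a specific complex with r2 that R2 did not form, and no difference in binding between R1 and r1. Bases are as listed in the study's table of oligonucleotides, 5′ to 3′. Capitals mark the stretch left between the bases that the R and r probes of a pair share at their ends.
R1: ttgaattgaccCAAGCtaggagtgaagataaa
r1: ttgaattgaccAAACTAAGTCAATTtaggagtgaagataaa
R2: atgctaattgttttttagtttaaaaaaa
r2: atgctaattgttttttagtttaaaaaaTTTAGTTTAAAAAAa

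In the first pair, the stretch in capitals is 14 bases in r1 and 5 bases in R1. The study describes the difference of this pair as a shorter insertion and a replacement of GC by TT. The bases CAA between these changes are thus common to R1 and r1, though in capitals. In the second pair, r2 holds 14 bases that R2 lacks, the 14-bp insertion of the study, and they repeat the 14 bases that precede them. Core strings that HMG boxes are known to prefer were looked for on both strands of all 4 probes. AACAAT was found 1 time in R2 and 1 time in r2, on the other strand and from base 7 in both, which is outside the inserted part. CAAAG occurred in none of the 4 probes. The variant CAATG was absent from them as well. The string AAACTAA, chosen after the probes were read, occurred 0 times in R1, 1 time in r1, 1 time in R2 and 2 times in r2, without overlapping AACAAT. These counts describe letters only, and the share of all promoters that hold each string was not computed here.

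Levels were compared between genes as RPKM, a unit that divides reads by gene length and by sequencing depth. The RPKM values came from 15829244 reads in the R/r library and 14258672 reads in the r/r library, totals that were recovered from the whole-read steps of the deposited values. A single read on a gene model of 1 kb was therefore worth 0.0632 RPKM in the R/r library and 0.0701 RPKM in the r/r library. All intervals given below are 95% intervals that cover counting error only, and neither animal nor dissection nor library preparation enters them. Reads were taken as the smallest whole numbers that fit both values of a gene, so a true count may be a multiple of that printed, with a narrower interval. Gene model lengths were recovered with the reads, so a true length may be the same multiple of that printed.

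SOX9, the chondrogenic and otic factor of subgroup E, stood highest by a wide margin. Its level was 83.7 RPKM (95% interval 81.5 to 86.0) in the R/r library and 74.8 RPKM (72.6 to 77.1) in the r/r library, from 5362 and 4317 reads. It made up 70.4% of the summed RPKM of the 8 measured genes in the R/r library (95% interval 69.8 to 71.0) and 69.4% in the r/r library (68.8 to 70.0). The intervals of this share take in the counting error of SOX9 alone, with the other genes held fixed, and are therefore too narrow. Over the 16 measured genes of the whole family its share was 53.8% and 54.0%. SOX9 lay above 92.8% of the 16331 genes compared by mean RPKM of the libraries.

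SOX4, a subgroup C factor found in many embryonic tissues, came next with 16.3 RPKM (14.6 to 18.0) in the R/r library and 15.2 RPKM (13.5 to 16.9) in the r/r library. SOX11, the other member of subgroup C examined and a factor of differentiating neurons and mesenchyme, had 0.846 RPKM (0.174 to 2.47) and 0.626 RPKM (0.0758 to 2.26) from 3 and 2 reads. The members of subgroup C were therefore far apart in level. The gene model behind SOX11 was 224 bases long at the smallest fit, or a multiple of that with as many times the reads. The SOX4 gene model was 1434 bases long and took 369 and 310 reads.

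Both subgroup D genes, the long-form partners of SOX9 in cartilage, were present at single-digit levels. SOX5 had 6.18 RPKM (4.20 to 8.77) in the R/r library and 5.53 RPKM (3.58 to 8.16) in the r/r library. SOX6 had 4.13 RPKM (2.87 to 5.74) and 3.27 RPKM (2.12 to 4.83). At the smallest fit these rested on gene models of 317 and 536 bases and on 25 to 35 reads per library. At these counts their levels were much less precise than that of SOX9, and multiples of them would narrow the intervals. A further feature that the study named SOX6-like had 1.73 and 1.65 RPKM from 14 and 12 reads, with a log2 ratio of -0.07 (-1.31 to 1.15), and was kept apart from SOX6.

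SOX17, the subgroup F factor of arterial endothelium, had 6.31 RPKM (5.48 to 7.22) in the R/r library and 7.50 RPKM (6.55 to 8.55) in the r/r library, from 210 and 225 reads. Its level could not be told from that of SOX5 in either library, with a ratio of 1.02 (0.698 to 1.54) in the R/r library and 1.36 (0.895 to 2.14) in the r/r library.

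The subgroup B1 genes were among the 3 lowest, with SOX11. SOX2, the factor of sensory progenitors and supporting cells, had 1.49 RPKM (1.01 to 2.11) in the R/r library and 0.851 RPKM (0.487 to 1.38) in the r/r library, from 31 and 16 reads. SOX3, an X-linked factor of the neural and otic progenitors, was listed at 0 in the R/r library, where 0 reads allow up to 0.0871 RPKM. Its 1 read in the r/r library gave 0.0322 RPKM, below the corresponding limit of 0.0967 RPKM, so no fold was formed. SOX3 was not detectable at this depth beyond that single read.

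**Figure D1:**
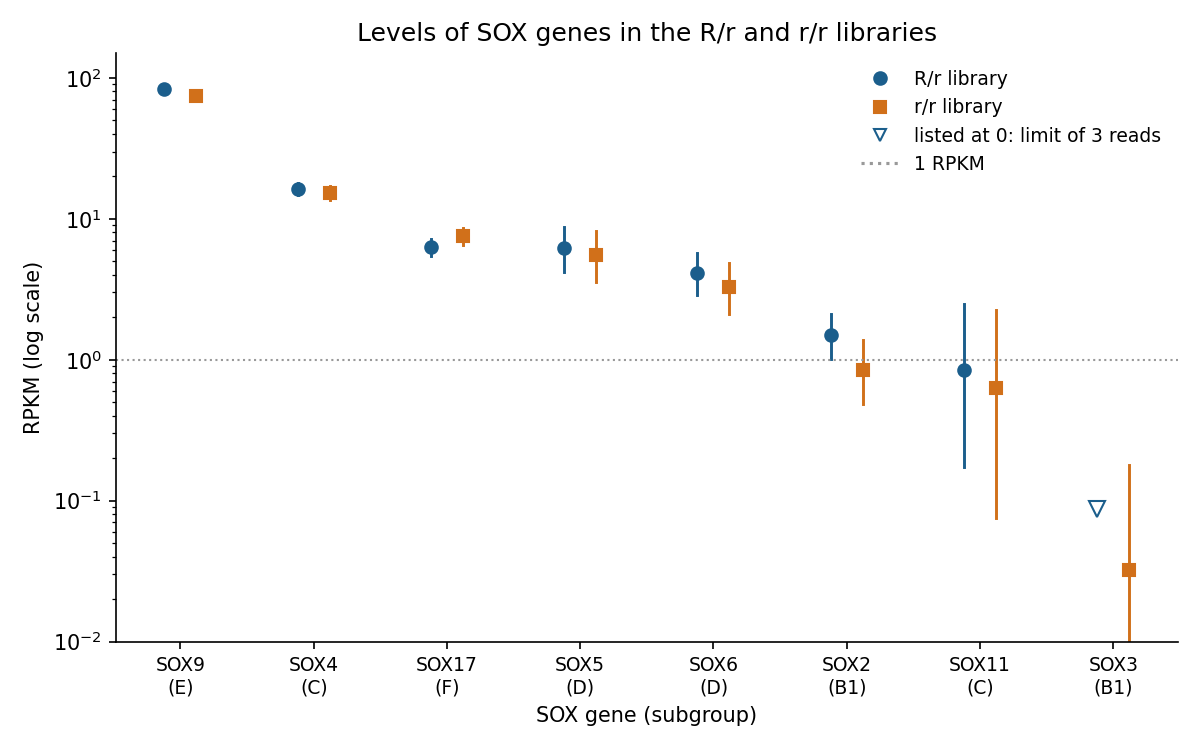
RPKM on a log scale of the 8 SOX genes measured, ordered by their level in the R/r library, with circles for the R/r library, squares for the r/r library and lines for the 95% counting interval (1 library each; the open triangle is the limit of 3 reads for SOX3, listed at 0). SOX9 at 83.7 and 74.8 RPKM stands alone at the top, and the order of the genes is the same in both libraries.

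The order SOX9, SOX4, SOX17, SOX5, SOX6, SOX2, SOX11, SOX3 was the same in both libraries. SOX9 exceeded SOX4 by 5.15-fold (4.63 to 5.74) in the R/r library and by 4.94-fold (4.40 to 5.56) in the r/r library. SOX4 exceeded SOX17 by 2.58-fold (2.17 to 3.07) and 2.02-fold (1.70 to 2.41), and SOX6 exceeded SOX2 by 2.78-fold (1.66 to 4.66) and 3.84-fold (1.97 to 7.70). These 3 steps were larger than counting error in both libraries. Besides SOX17 and SOX5, neighbours whose levels did not differ beyond counting error were SOX5 and SOX6, with ratios of 1.498 (0.893 to 2.50) and 1.69 (0.932 to 3.07), and SOX2 and SOX11, with ratios of 1.76 (0.548 to 8.98) and 1.36 (0.320 to 12.2). At a threshold of 1 RPKM, 5 of the 8 genes (SOX4, SOX5, SOX6, SOX9 and SOX17) were expressed in both libraries, and SOX2 passed it in the R/r library alone. The interval of SOX2 in the r/r library (0.487 to 1.38 RPKM) took in the threshold. The count was 7 at a threshold of 0.5 RPKM and 4 at 5 RPKM. The study counted SOX2 and SOX9, but not SOX3, as expressed in the SV.

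The libraries were then compared gene by gene, to describe how far the SOX genes differed between the R/r library and the r/r library. Ratios were formed as r/r over R/r for the 16331 genes above 0 in both libraries with at least 1 RPKM in at least 1 of them, which took in 6 of the 8 SOX genes and left out SOX3 and SOX11. Among these 6 SOX genes, 0 were at least 2-fold apart, against 3.99% of all genes compared, made up of 2.2% at least 2-fold lower and 1.78% at least 2-fold higher in r/r. The nearest was SOX2, which passed the minimum only through the R/r library, where it is higher. In such bulk RNA, fewer cells of a type and less RNA per cell cannot be told apart.

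SOX9 had a log2 ratio of -0.16 (-0.22 to -0.10), and it was the only SOX gene of the 6 whose interval lay wholly below no change. Of all genes compared, 14.4% had an interval wholly below no change and 11.2% wholly above it. An interval wholly beyond 2-fold was found in 0 of the 6 and in 0.643% of all genes compared. SOX9 was also the most deeply counted of the 6, with 9679 reads in all, and among the 362 genes compared with at least as many reads 29.8% had an interval wholly below and 46.7% wholly above no change. A ratio below that of SOX9 was found in 27.0% of all genes compared and in 15.5% of those 362. The SOX9 difference was thus small, with a narrow interval because many reads were counted.

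SOX2 had the lowest ratio of the 6, at -0.80 on the log2 scale, or 1.75-fold lower in the r/r library. Its interval of -1.77 to 0.11 spanned no change and reached beyond 2-fold, because it rested on 47 reads in all. A ratio below that of SOX2 was held by 3.59% of all genes compared and by 1.93% of the 14358 with at least its reads. At least a 1.5-fold difference, which 1 of the 6 (SOX2) had, was found in 10.8% of genes. Equal levels of SOX2 and a difference beyond 2-fold both lay within counting error.

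The other SOX genes had ratios between -0.33 and 0.25 on the log2 scale. SOX4 was nearly level at -0.10 (-0.32 to 0.12). The subgroup D genes SOX5 and SOX6 had -0.16 (-0.98 to 0.65) and -0.33 (-1.14 to 0.45). SOX17 was the only gene of the 6 that was higher in the r/r library, at 0.25 (-0.03 to 0.53). A ratio below that of SOX17 was held by 86.3% of all genes compared and by 93.8% of the 8206 with at least its reads. SOX11, left out of the 6, had -0.43 with an interval of -4.02 to 2.69, which gives no bound of use. Intervals for SOX4, SOX5, SOX9 and SOX17 lay within 2-fold, while those for SOX2 and SOX6 reached beyond it.

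**Figure D2:**
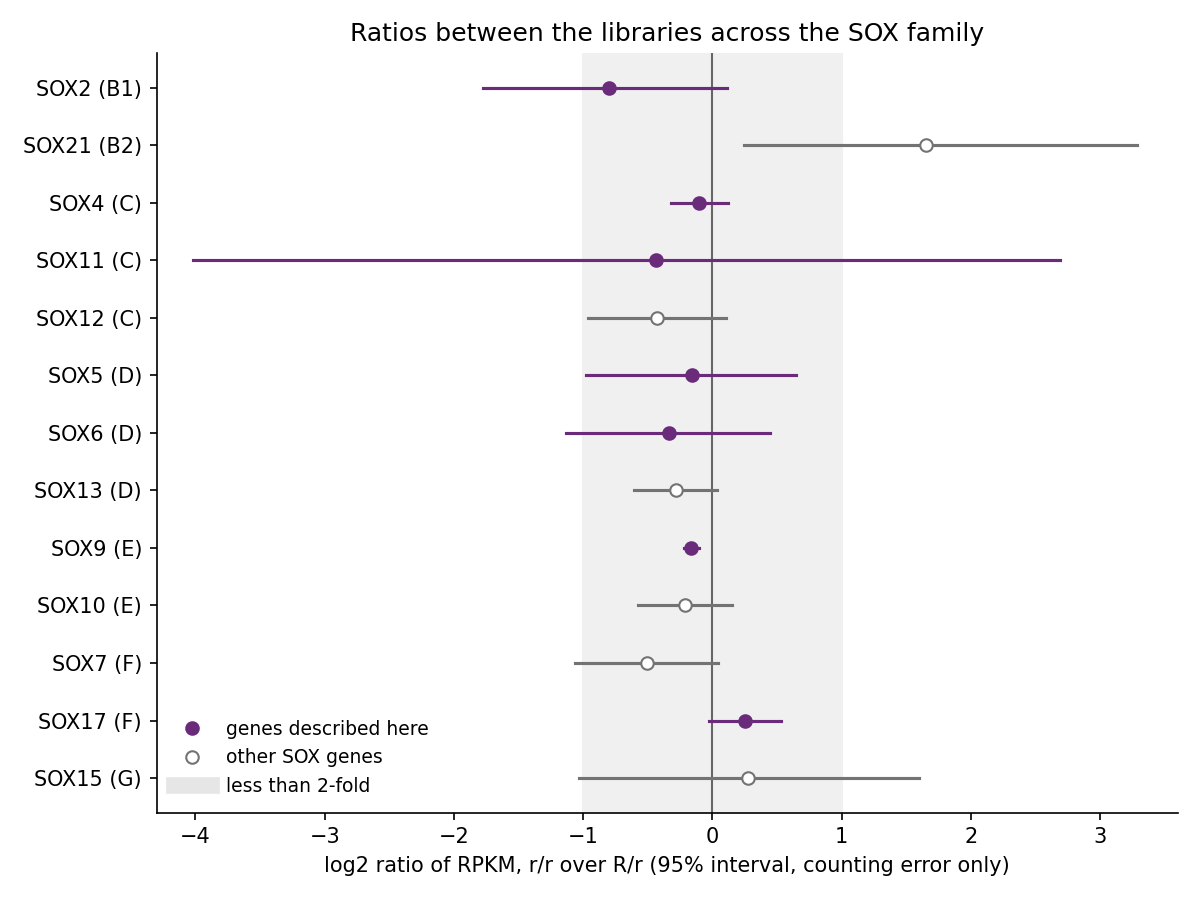
Log2 ratio of RPKM (r/r over R/r) of the SOX genes with reads in both libraries, by subgroup, with filled points for the genes described, open points for the other family genes and lines for the 95% counting interval; the grey band is less than 2-fold, SOX30 with 1 read in each library is left out, and SOX21 and SOX11 are below 1 RPKM in both libraries. SOX9 (-0.16) has a narrow interval below 0, and the intervals of the other filled points cross 0.

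Of the 6, 5 were lower in the r/r library by any amount, against 53.3% of all genes compared. Their median log2 ratio was -0.16, beside -0.02 over all genes compared. By subgroup, the summed RPKM of the genes examined went from 1.49 to 0.884 in B1, from 17.1 to 15.8 in C, from 10.3 to 8.80 in D, from 83.7 to 74.8 in E and from 6.31 to 7.50 in F. Subgroups C, D and E thus differed by -0.12, -0.23 and -0.16 on the log2 scale, F by 0.25 and B1 by -0.75. The sum over the 8 genes was 119 RPKM in the R/r library and 108 RPKM in the r/r library, a log2 ratio of -0.14 in which SOX9 is the largest term.

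Differences between the ratios of the SOX genes were compared in 21 pairs, the 7 genes above 0 in both libraries taken against each other. At 95%, 2 of the 21 pairs stood apart, both with SOX17. SOX9 was 0.41 lower than SOX17 on the log2 scale (difference -0.41, -0.70 to -0.13), and SOX2 was 1.05 lower (difference -1.05, -2.06 to -0.09). With intervals widened for 21 pairs, these became -0.85 to 0.02 and -2.62 to 0.39, and 0 pairs stood apart. Within a subgroup, SOX4 and SOX11 differed by 0.33 (-2.80 to 3.92) and SOX5 and SOX6 by 0.17 (-0.98 to 1.33), so counting error was too wide to say whether subgroup partners moved alike.

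**Figure D3:**
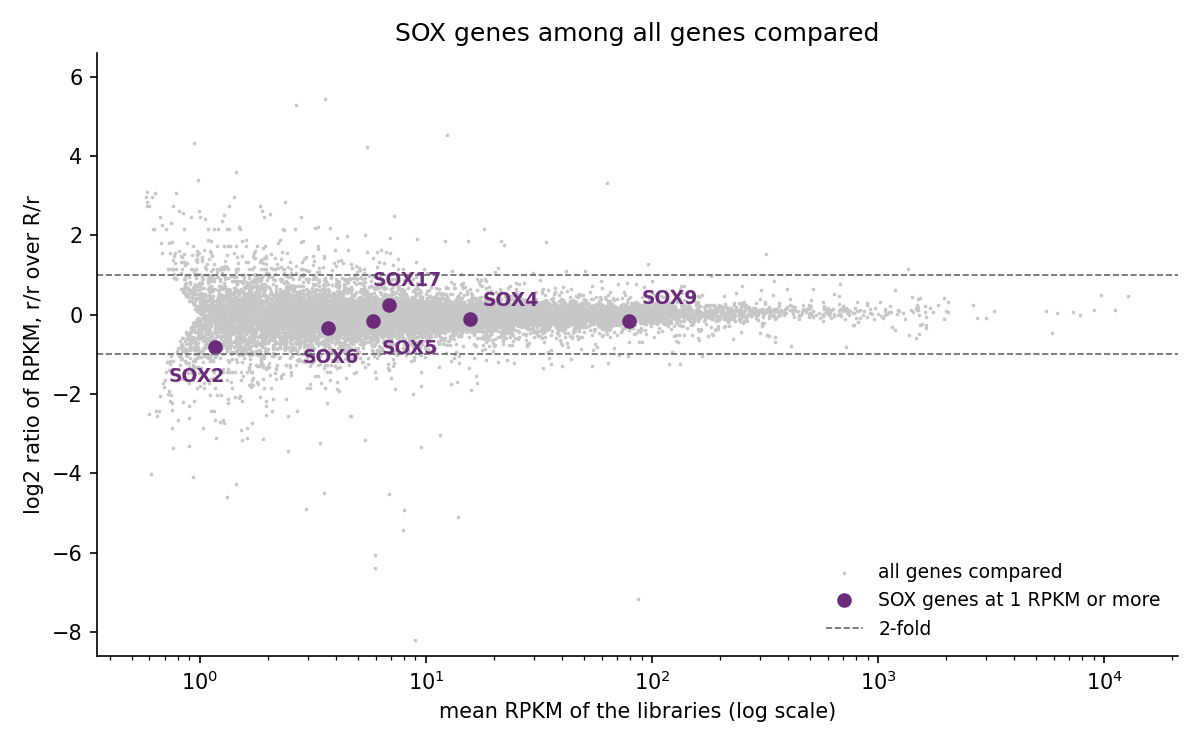
Log2 ratio of RPKM (r/r over R/r) against the mean RPKM of the libraries on a log scale for the 16331 genes compared (grey) and the 6 SOX genes among them (purple, named), with dashed lines at 2-fold. All 6 SOX points lie between the dashed lines, SOX9 at the high end of expression and SOX2 near the low end.

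The remaining SOX genes gave the same picture of ratios under 2-fold where they were expressed. Of the 9 family genes outside the 10, 8 had a feature and 5 were compared, with 0 at least 2-fold apart, 4 lower in the r/r library and a median log2 ratio of -0.28. The shares over all genes compared were 3.99% at least 2-fold apart and 53.3% lower. SOX13, the third subgroup D gene, was the highest at 22.4 and 18.4 RPKM (-0.28, -0.60 to 0.04), above SOX5 and SOX6. SOX12 of subgroup C had 6.11 and 4.55 RPKM (-0.42, -0.97 to 0.11). SOX7 of subgroup F had 1.499 and 1.06 RPKM (-0.50, -1.06 to 0.04), opposite in sign to SOX17 although both intervals spanned no change. SOX15 had 1.04 and 1.26 RPKM (0.28, -1.03 to 1.60). SOX10, the neural crest factor of subgroup E, had 5.20 and 4.50 RPKM (-0.21, -0.58 to 0.16), read from the feature of higher level. That feature is named SOX10-like by the study, and the other SOX10 feature had 1 read in each library.

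The B2 gene SOX21, a repressor partner of SOX2 in sensory epithelium, was the SOX gene with an interval wholly above no change. It had 0.304 RPKM in the R/r library and 0.955 RPKM in the r/r library from 6 and 17 reads, a log2 ratio of 1.65 (0.24 to 3.28). It stayed below 1 RPKM in both libraries and so was not among the genes compared, of which 11.2% had an interval wholly above no change. SOX14 and SOX30 had at most 1 read in a library.

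The tissue markers show what the RNA held beside these factors. Of 5 markers of the intermediate cells, the melanocyte-like cells of the SV, 4 were matched by name. Of these, 3 (DCT, TYR and PMEL) were lower in r/r by 2-fold or more, beside 2.2% of all genes compared. KIT had 43.6 and 44.2 RPKM. KCNJ10 was not matched by that name. The study's marker list holds it as KIR1.2, with a lower RPKM in r/r than in R/r. The feature named MITF had 51.7 RPKM in the R/r library and 37.8 RPKM in the r/r library (log2 ratio -0.45, -0.75 to -0.16). By the study's account, gene RPKM values cannot separate the melanocyte isoform from others. Which exons the feature covers is not given here. Marginal cell markers had a median log2 ratio of -0.24, and the 3 fibrocyte markers a median of -0.04, with COCH at 6826 and 4914 RPKM, POU3F4 at 54.2 and 52.6 RPKM and TBX18 at 172 and 205 RPKM. All 4 bone markers were lower in the r/r library, 2 of them (COL1A1 and DMP1) by 2-fold or more, beside 53.3% and 2.2% of all genes compared. The summed RPKM of the 4 went from 629 to 364. Bone markers were thus present in both libraries and lower in the r/r library.

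Cartilage matrix genes that SOX9, SOX5 and SOX6 are known to drive covered a wide range of levels, with the collagens and MATN4 high and the others far lower. Of 14 listed, 11 had a feature and 9 were compared, of which 0 were at least 2-fold lower or higher, 8 were lower in the r/r library and 1 was higher. An interval wholly below no change was seen in 7 of the 9, beside 14.4% of all genes compared and 29.8% of those with at least the reads of SOX9, which the collagens and MATN4 had. The list had a median log2 ratio of -0.23 beside -0.02 over all genes. COL11A2, a chain of cartilage collagen XI, was the highest at 2825 and 2666 RPKM (-0.08). The lowest ratio was that of the proteoglycan ACAN, at 8.47 and 5.56 RPKM (-0.61, -0.76 to -0.46), and the highest that of the link protein HAPLN1 at 16.5 and 17.9 RPKM (0.12, -0.01 to 0.26). MATN1 and COMP had at most 9 reads in a library and were not compared. Their reads were higher in the r/r library, with 1 and 7 for MATN1 and 1 and 9 for COMP.

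The ratios of SOX9, SOX5 and SOX6 (-0.16, -0.16 and -0.33) thus lay in the range of this list. The 4 cartilage markers listed for the tissue (COL2A1, ACAN, COL9A1 and MATN1) are genes of this same list, and their summed RPKM was 3466 (R/r) and 2919 (r/r). COL2A1 (1773 and 1474 RPKM) and COL9A1 (1684 and 1440 RPKM) made up nearly all of that sum. MATN1 had 0.0424 and 0.329 RPKM. The part of the amount of cartilage or bone in the SOX9 difference was not tested. Some of these collagens also occur elsewhere in the cochlea, such as in the tectorial membrane.

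Endothelial genes that act with SOX7, SOX17 and SOX18 showed no common direction. Of 14 listed, 12 were compared, with 0 at least 2-fold apart, 7 lower, 5 higher and a median log2 ratio of -0.03. Of all genes compared, 3.99% were at least 2-fold apart and 53.3% were lower. Intervals lay wholly below no change in 4 of the 12 and wholly above it in 2, beside 14.4% and 11.2% of all genes compared. CLDN5, the tight junction claudin of vessels, was the highest at 71.3 and 76.3 RPKM (0.10, -0.05 to 0.25). VWF, a clotting factor stored in endothelium, had the lowest ratio at 10.7 and 6.49 RPKM (-0.73, -1.08 to -0.38), and the angiopoietin receptor TEK the highest at 9.92 and 11.7 RPKM (0.24, 0.01 to 0.47). The ratio of SOX17 (0.25) was thus just above the highest of this list, with an interval that overlapped that of TEK. The list summed to 362 and 364 RPKM. Of 3 endothelial markers, 2 (PECAM1 and KDR) had a feature, and their summed RPKM was 129.8 and 119.9, with KDR level at 60.6 and 60.04 RPKM and PECAM1 at 69.1 and 59.9 RPKM.

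Otic epithelium genes that act with SOX2 varied as well. Of 10 listed, 8 were compared, with 0 at least 2-fold apart, 5 lower, 3 higher and a median log2 ratio of -0.22. Among all genes compared, 3.99% were at least 2-fold apart and 53.3% were lower. PAX2, a factor of the otic vesicle, had the lowest ratio at 14.2 and 8.61 RPKM (-0.72, -1.01 to -0.43), near that of SOX2, and EYA1, a transcriptional cofactor of the otic placode, the highest at 51.9 and 59.9 RPKM (0.21, -0.10 to 0.52). ATOH1, the hair cell factor, had 1 read in the R/r library and 0 reads in the other.

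Markers of cells that could hold SOX2 RNA differed between the libraries too. Of 4 hair and supporting cell markers, 3 had a feature, and their summed RPKM was 7.22 and 11.2, with MYO7A at 1.46 and 0.902 RPKM and TECTA at 5.38 and 9.78 RPKM. The part of these cells in the SOX2 difference was not tested.

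Several known melanocyte and glial targets of SOX10 had ratios far below that of any SOX gene. Of 10 listed, 7 were compared, of which 4 passed 2-fold downward from R/r to r/r and 0 upward, beside 2.2% and 1.78% of all genes compared. The lowest was DCT, a melanin synthesis enzyme, at 171 and 1.19 RPKM (-7.17), and the highest ratio was that of the neuregulin receptor ERBB3 at 8.67 and 10.1 RPKM (0.22, 0.04 to 0.39). S100B, a calcium-binding protein, was the most abundant at 6091 and 6272 RPKM (0.04). Of 4 listed targets of subgroup C, 2 were compared, with TEAD2 at 37.3 and 39.0 RPKM (0.06, -0.08 to 0.21) and DCX at 3.75 and 3.21 RPKM (-0.22, -1.004 to 0.54).

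**Figure D4:**
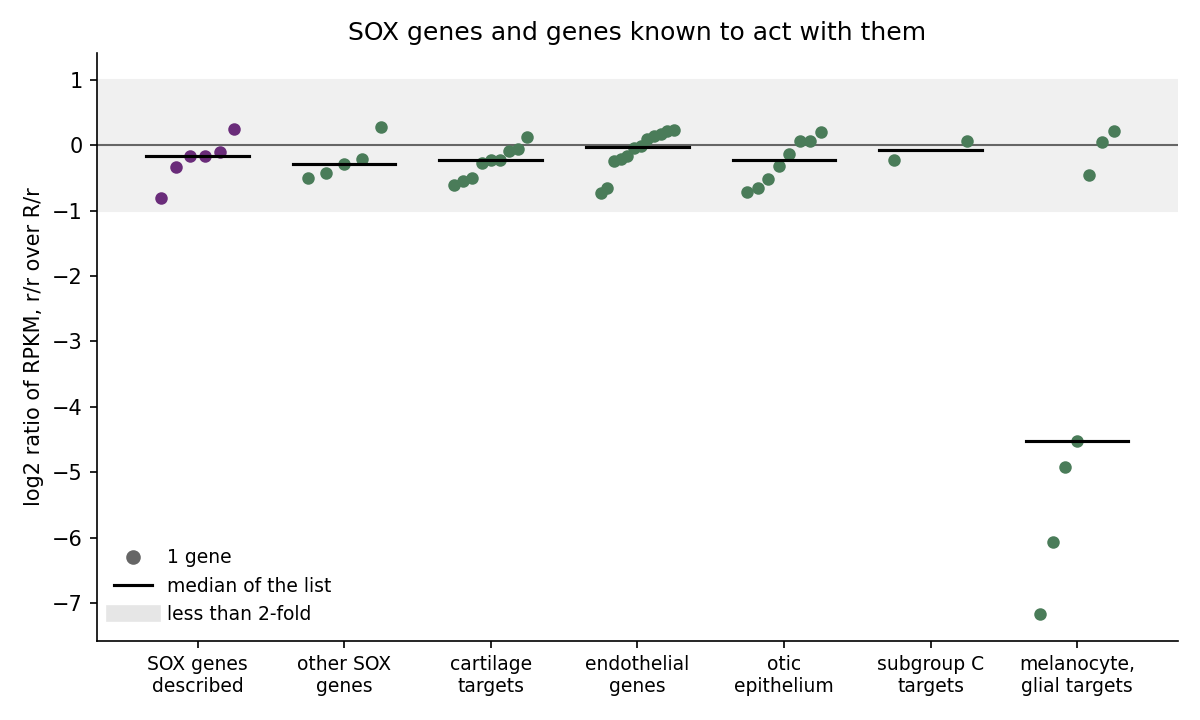
Log2 ratio of RPKM (r/r over R/r) of each compared gene, 1 point per gene, for the SOX genes described, the other SOX genes and the lists of genes known to act with them, with a bar at the median and a grey band for less than 2-fold. The SOX genes (median -0.16) and 5 of the lists lie inside the band, and 4 melanocyte and glial genes lie far below it.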

How the data were processed

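The authors prepared TruSeq libraries of total RNA, sequenced reads of 100 bases, aligned them to Sscrofa10.2 with TopHat2 (2.0.7) and deposited RPKM values, scaled to gene length and library depth, for 27622 features in 1 R/r and 1 r/r library. The counting program and annotation are not given in the sources used here. The 2 unnamed columns, filled for 22 genes, hold the authors' own comparison and were not used.

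Reads and library totals were recovered from the RPKM steps with Python (3.11.15), numpy (2.4.6), pandas (2.3.3) and scipy (1.17.1). Whole reads were found for 20862 of 20862 features above 0, with a gene length whole within the rounding of the printed values for 99.4%. Library totals came from 5128 genes of at most 20 reads, of which 62.9% had a length whole within 0.02 bases. Log2 ratios took no pseudocount and needed at least 1 RPKM in 1 library. Intervals were exact, Clopper-Pearson for ratios and Poisson for levels, and a count of 0 was read as up to 3 reads. The SOX9 share took the Poisson limits of SOX9, with the other genes held fixed. Steps were tested on simulated data. No p-value was computed.

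Genes named were all SOX genes and, in each list, the most abundant and the lowest and highest ratio. Markers are named besides. Some genes of these lists are not reported here by name. Genes of the lists were matched by name, so a gene given as without a feature may be present under another name. Where features shared a symbol, that of higher mean RPKM was used. The SOX genes and lists were chosen with earlier results of these data known. The age, P1 or embryonic day 85, differs between sources.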

Additional observations from a re-analysis of the deposited data

How the results depend on the processing

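No paired analysis was possible because each genotype has 1 library, and leaving out a replicate was not possible for the same reason. Of 24 alternatives for the summary results, 19 stayed within the limits set and 5 did not. Limits were a 1.5-fold change for counts, -0.60 to 0.27 for the median log2 ratio and the counting interval for the SOX9 share. These limits were wide for the median and the 2-fold count. By construction neither could be moved out of them by the scalings, and pseudocounts only draw ratios towards no change. At a 1.5-fold threshold, 1 SOX gene (SOX2) was apart, against 0 at 2-fold, by construction. The SOX9 share fell from 70.4% to 69.4% in the R/r library and from 69.4% to 68.4% in the r/r library with SOX6-like added to SOX6, and was 88.8% and 87.7% in reads not divided by length, since its gene model is long. Gene ratios moved little under other pseudocounts, scalings and feature sums, which by construction could hardly turn a sign: an equal pseudocount cannot, the scalings moved all genes by at most 0.04 on the log2 scale, and the feature sum touched SOX6 alone. SOX2 ranged from -0.84 to -0.43, the latter at a pseudocount of 1 RPKM, SOX9 from -0.20 to -0.12 and SOX17 from 0.21 to 0.29. Without SOX2, an alternative chosen after seeing the data, the median was -0.16. At the counts printed, depth limits SOX3 most, which gave no ratio, then SOX11, SOX2, SOX5 and SOX6.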
